A study of Mus musculus with 7 samples.

Results

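The 10 genes described here carry arginine into the cell, break it down or rebuild it, and turn its product ornithine into polyamines. They are Arg1, Arg2, Nos2, Slc7a1, Slc7a2, Ass1, Odc1, Sat1, Srm and Sms, taken by name from the 55385 genes of each count file, and all 10 were found. They were read in sorted macrophages, taken from brain tumours that grew in C57BL/6 mice after injection of 100000 QPP7 glioma cells. In 3 libraries the QPP7 cells carried a hairpin against Chi3l1 (shChi3l1), and in 4 libraries a control hairpin (shSC). Chi3l1 encodes a secreted chitinase-like protein. Both groups share the strain, the tumour line and the sort, and the macrophages themselves carried no hairpin. QPP7 is 1 line, and whether each library came from its own mouse is not given in the sources used here. A p-value here thus sets the group difference against the spread among these libraries only, which may be technical. Mouse age and the antibodies of the sort are likewise not given in the sources used here.

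Arginine enters macrophages through cationic amino acid transporters. Arginase cleaves it to ornithine and urea, and nitric oxide synthase turns it into citrulline and nitric oxide, from which argininosuccinate synthase starts the way back to arginine. Ornithine decarboxylase makes putrescine from ornithine, spermidine synthase and spermine synthase lengthen it, and spermidine/spermine acetyltransferase starts the way back. In macrophages high arginase is a textbook feature of alternative activation and high inducible nitric oxide synthase one of inflammatory activation.

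The libraries held 19169129 to 36502664 reads assigned to genes. All 10 macrophage markers examined passed the filter on low counts, and Lyz2, the lysozyme gene and most abundant of them, lay between 10458 and 33969 CPM, the read count scaled to the size of the library. The 10 summed to 26211 to 48492 CPM in shChi3l1 and 20084 to 31121 CPM in shSC libraries, with a log2 fold change above 0 for each, and their part in the results that follow was not tested. Of markers for other cells, the summed level of 10 tumour and glial genes was 35.3 to 272 CPM in shSC and 11.4 to 77.5 CPM in shChi3l1 libraries, and 7 of the 8 tested had a log2 fold change below 0. It was highest in shSC 4, where Fabp7, a radial-glia gene, reached 141 CPM. The 7 microglia markers, led by Olfml3, summed to 563, 1122 and 2960 CPM in shChi3l1 1 to 3 and to 419 to 731 CPM in shSC libraries. Their log2 fold changes were above 0 in 7 of 7. In edgeR's quasi-likelihood test 4 had an unadjusted p under 0.05 and 0 passed after adjustment. Beside these marker counts, 57.6% of all tested genes were above 0 and 42.4% below, and 1.48% had an unadjusted p under 0.05. The part of these tumour and microglia markers in the results was not tested. The 8 neutrophil markers, led by Csf3r, summed to 45.5 to 148 CPM, and Csf3r itself lay between 14.6 and 141 CPM. The 8 T and NK cell markers, led by Nkg7, summed to 65.3 to 582 CPM, and the 6 B-cell markers, led by Cd79a, to 16.7 to 276 CPM. The 6 monocyte markers, led by Plac8, summed to 568 to 3377 CPM. Endothelial markers, led by Cldn5, summed to 19.1 to 90 CPM, and fibroblast and pericyte markers, led by Rgs5, to 0.532 to 13.9 CPM. No marker was at 0 in every library. In bulk samples fewer cells of a type and less RNA per cell cannot be told apart.

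The count of 1 member, Ass1, is shared with a near-identical copy. Ass1 (ENSMUSG00000076441.9, mm10 chromosome 2, 31470207 to 31520672, plus strand) encodes argininosuccinate synthase. Gm5424, annotated as a processed pseudogene on chromosome 10 (62071123 to 62072362, plus strand), matches its coding sequence at 1230 of 1236 bases. Coding bases 310 to 429 of Ass1 in the GENCODE transcripts are shown for both because no other stretch of 120 bases differed at more positions.
Ass1: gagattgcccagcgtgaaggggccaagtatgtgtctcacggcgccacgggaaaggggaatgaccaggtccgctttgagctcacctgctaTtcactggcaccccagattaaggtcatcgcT
Gm5424: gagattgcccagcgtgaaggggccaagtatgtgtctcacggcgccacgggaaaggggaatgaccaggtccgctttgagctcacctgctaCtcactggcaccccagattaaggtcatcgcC
Capitals mark the 2 differences in it, T90C and T120C, counted from 1 at the 5′ end of the stretch with the base of Ass1 first. The coding sequences ran identical for up to 398 bases. Reads assigned to Gm5424 came to between 36.2% (shSC 1) and 48.3% (shSC 4) of those assigned to Ass1, so neither count is a clean measure of 1 gene. Similar copies were found for Odc1 (19 genes), Sms (8), Sat1 (2), Srm (2) and Slc7a2 (1, with 0 reads), each matching at 90% identity or more over at least 200 bases. The copies of Odc1 held 4.08% as many reads as Odc1, and those of Sms 54.1%, nearly all in Sms-ps.

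**Figure D1:**
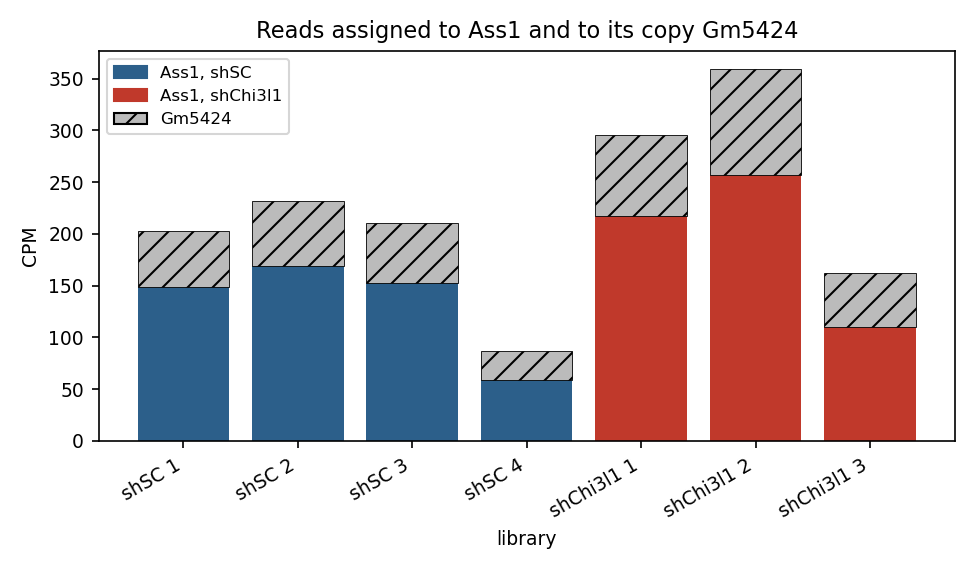
Reads assigned to Ass1 (solid) and to its copy Gm5424 (hatched) in each library, in CPM on a linear axis from 0. The copy holds a like share beside Ass1 in every library, 36.2% to 48.3% of its reads, and the stacked bar is lowest in shSC 4, at 86.8 CPM.

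The start regions of Odc1 and Sat1 are shown because these enzymes govern the entry to and the exit from the polyamine pool. They come from RefSeq on GRCm38.p6, which is mm10, and run from 250 bases before to 50 after the start of transcription given there. For Odc1 the gene span used for counting begins upstream of that start, at 17544794. The table matched Slc7a1, Ass1, Odc1, Sat1 and Sms, and did not list Arg1, Arg2, Nos2, Slc7a2 and Srm. The Odc1 region is chr12:17544623-17544922 on the plus strand, and that of Sat1 is chrX:155216400-155216699 on the minus strand.
Odc1: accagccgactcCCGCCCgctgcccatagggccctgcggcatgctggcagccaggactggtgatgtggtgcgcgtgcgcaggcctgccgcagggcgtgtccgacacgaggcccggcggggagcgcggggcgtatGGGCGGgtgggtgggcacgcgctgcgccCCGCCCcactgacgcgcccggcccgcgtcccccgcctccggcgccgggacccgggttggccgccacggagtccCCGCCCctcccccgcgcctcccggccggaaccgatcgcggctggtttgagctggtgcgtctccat
Sat1: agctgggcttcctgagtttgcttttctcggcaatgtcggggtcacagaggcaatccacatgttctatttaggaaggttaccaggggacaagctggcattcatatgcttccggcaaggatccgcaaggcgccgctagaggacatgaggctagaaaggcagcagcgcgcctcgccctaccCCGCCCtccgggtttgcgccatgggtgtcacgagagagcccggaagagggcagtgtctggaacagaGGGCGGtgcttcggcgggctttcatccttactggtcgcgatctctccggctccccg
Capitals mark GC boxes (CCGCCC on either strand), the only one of 9 motifs found in these windows. Odc1 held 4 and Sat1 held 2, and 35.7% of 32851 such windows hold at least 1. The other motifs searched on both strands were the TATA box TATAAA, the CCAAT box CCAAT, the E-box CACGTG, the cyclic AMP element TGACGTCA, the STAT site TTCNNNGAA, the same site with 1 more N in its gap, the kappa B site by its consensus and the C/EBP site TTGCNNAA. The GC content was 78% for Odc1 and 60.3% for Sat1, against a median of 52.7% over all windows. None of these letters is evidence of a factor bound there.

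Levels of different genes were compared per kilobase of exon, as CPM divided by exonic length (RPKM). Sat1 led in both groups, at 480 ± 162 RPKM (SD, n = 4) in shSC and 505 ± 283 RPKM (SD, n = 3) in shChi3l1 libraries. In shSC libraries Arg1 followed at 206 ± 232 RPKM (SD, n = 4), then Ass1 at 54.8, Srm at 47.8, Odc1 at 44.7 and Arg2 at 39 RPKM. Slc7a2 (7.24), Nos2 (5.12), Sms (1.89) and Slc7a1 (1.58) came last. Only between Arg2 and Slc7a2 did the ranges of neighbours in that order not overlap. In shChi3l1 libraries the order was Sat1, Ass1 (80.7 RPKM), Arg1 (65.3), Arg2 (64.4), Odc1 (53.1), Srm (31.8), Nos2 (10.5), Slc7a2 (8.99), Sms (2.33) and Slc7a1 (1.46). There the ranges of neighbours were apart between Sat1 and Ass1, Srm and Nos2, and Slc7a2 and Sms. Arg1 thus followed Sat1 in shSC libraries and Ass1 in shChi3l1 libraries, with a range wide enough to overlap both of its neighbours in shSC.

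**Figure D2:**
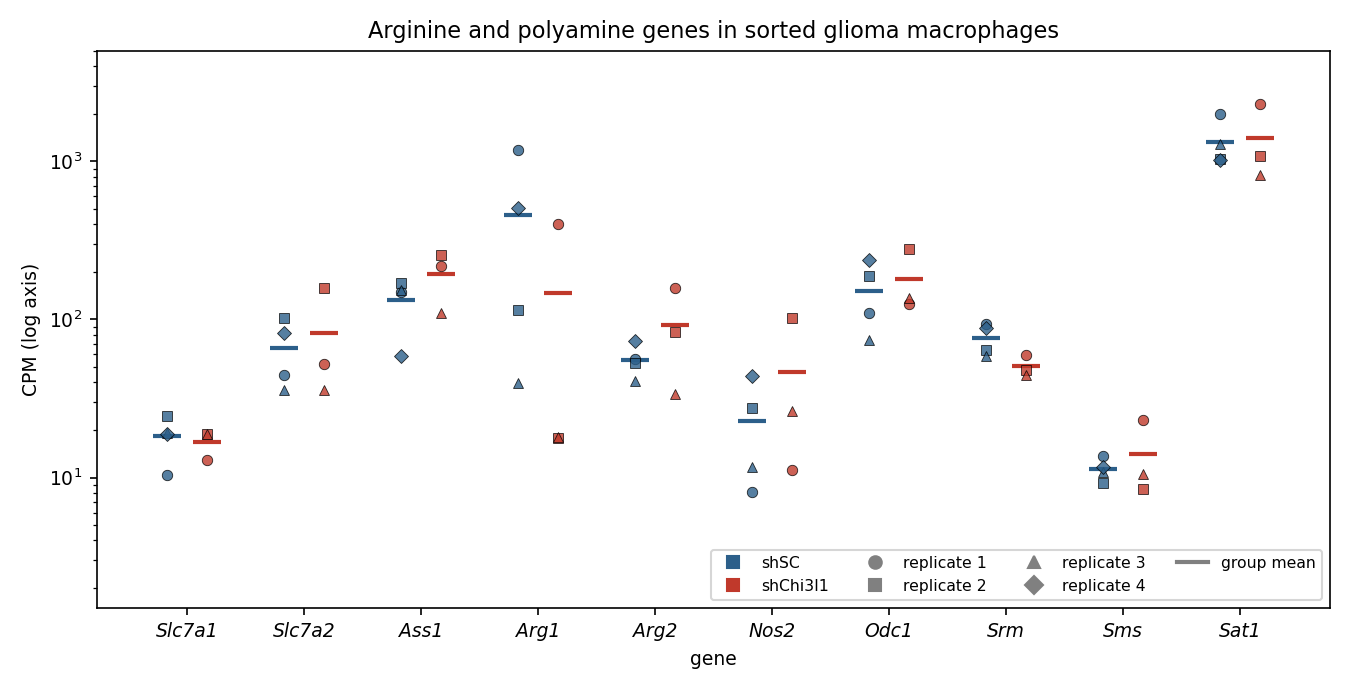
CPM of the 10 genes in each library on a log axis, shSC in blue and shChi3l1 in red, with a symbol for each replicate number and a bar at the group mean. Arg1 spans 17.9 to 1170 CPM, the widest range of the 10, while the 2 groups overlap for every gene.

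None of the 10 genes passed the test between hairpins. At an adjusted p of 0.05 edgeR's quasi-likelihood test called 0 of 10 members and 0% of all 15448 tested genes, and the adjusted p was 0.9998 for each member. At an unadjusted p under 0.05 it had 0 of the 10, against 1.48% of all tested genes (0.906% higher and 0.576% lower in shChi3l1). DESeq2's Wald test also called 0 members, against 0.00651% of all genes it adjusted. At an unadjusted p under 0.05 it had 0 members, against 350 of all 15448 tested genes. Limma's voom with sample weights called 0, with 1 at an unadjusted p under 0.05 (Arg1, voom adjusted p = 0.9376), against 4.62% of all tested genes. All 10 passed the filter on low counts. Their log2 fold changes, shChi3l1 over shSC, ran from -1.65 to 1.03 with 7 above 0, while 57.6% of all tested genes were above 0 and 42.4% below. The median was 0.27 over the 10 and 0.07 over all tested genes. In none of the 10 did every shChi3l1 library lie on 1 side of every shSC library, which 2.49% of tested genes did (1.24% higher and 1.25% lower).

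**Figure D3:**
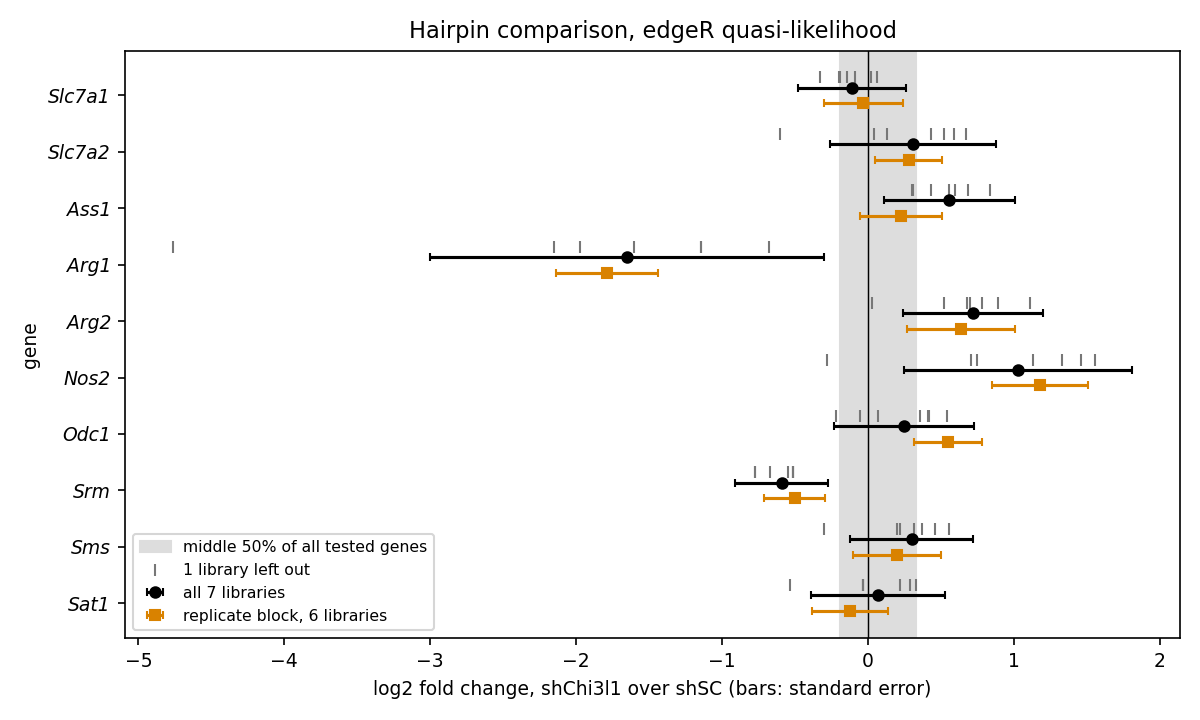
Log2 fold change of each gene, shChi3l1 over shSC, from all 7 libraries (black circles) and with the replicate number as a block over 6 libraries (orange squares), with standard errors as bars. Grey ticks give the value with 1 library left out, and the band holds the middle 50% of all tested genes (-0.19 to 0.33); Arg1 lies farthest to the left, at -1.65 and -1.79.

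Arg1, the cytosolic arginase (ENSMUSG00000019987.9, chromosome 10, 24915221 to 24927484, minus strand, 2228 exonic bases), varied more than any other member. It stood at 401, 17.9 and 18.1 CPM in shChi3l1 1, 2 and 3. In shSC 1, 2, 3 and 4 it stood at 1170, 115, 39.8 and 508 CPM. The lowest 2 libraries were both shChi3l1 and the highest 2 both shSC, but shChi3l1 1 exceeded shSC 2 and 3, so the groups overlapped. The means were 146 ± 221 CPM (SD, n = 3) and 458 ± 517 CPM (SD, n = 4), and the log2 fold change was -1.65 (SE 1.35, edgeR adjusted p = 0.9998). The spread of Arg1 within groups was 2.35 on the log2 scale, above that of 96.3% of tested genes. Single libraries moved the size of the difference. Without shChi3l1 1 the log2 fold change of Arg1 was -4.76 (SE 1.39, edgeR adjusted p = 0.7496), and without shSC 1 it was -0.68 (SE 1.33).

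Between same-numbered libraries Arg1 differed in 1 direction, though the labels name no shared day or animal for a replicate number. The log2 differences, shChi3l1 minus shSC, were -1.55 for replicate 1, -2.69 for replicate 2 and -1.14 for replicate 3. With the replicate number as a block, over 6 libraries, Arg1 was at -1.79 (SE 0.35), with an unadjusted p of 0.00213 and an edgeR adjusted p of 1.0000. Its standard error was thus smaller within same-numbered libraries than across all 7. In the same fit 3 members (Arg1, Nos2 and Odc1) had an unadjusted p under 0.05, against 2.91% of 14950 tested genes, and none of the 10 passed after adjustment.

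The level of Arg1 moved with a sign of RNA composition. Ribosomal protein genes took 6.2%, 5.7% and 4.6% of reads in shChi3l1 1, shSC 1 and shSC 4, the 3 libraries highest in Arg1, and 2.0% to 3.3% in the other 4. Their part in the result was not tested. After each library's trend with gene length was removed, the log2 fold change of Arg1 was -1.92 (SE 1.27).

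Arg2, the mitochondrial arginase (ENSMUSG00000021125.6, chromosome 12, 79130777 to 79156301, plus strand), went the other way in its values. It stood at 159, 83.1 and 33.9 CPM in shChi3l1 1 to 3 and at 56.0, 52.8, 40.7 and 73.4 CPM in shSC 1 to 4. ShChi3l1 1 and 2 exceeded all shSC libraries, and shChi3l1 3 was the lowest of all 7. The log2 fold change was 0.72 (SE 0.48, edgeR adjusted p = 0.9998), which became 1.11 without shChi3l1 3 and 0.03 without shChi3l1 1. Of the exon bases of Arg2 28.08% are shared with Vti1b or Gm48780, and the kit does not mark strand. Vti1b, a vesicle fusion gene, was likewise highest in shChi3l1 1, at 223 CPM against 79.8 to 178 CPM elsewhere, and its part in the Arg2 count was not tested.

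Nos2, the inducible nitric oxide synthase (ENSMUSG00000020826.9, chromosome 11, 78920787 to 78960254, plus strand), was highest in shChi3l1 2. It stood at 11.2, 102 and 26.2 CPM in shChi3l1 1 to 3 and at 8.16, 27.5, 11.6 and 43.6 CPM in shSC 1 to 4. Apart from shChi3l1 2 the libraries of both groups lay between 8.16 and 43.6 CPM. The log2 fold change was 1.03 (SE 0.78, edgeR adjusted p = 0.9998), and without shChi3l1 2 it was -0.28 (SE 0.72). Within same-numbered libraries Nos2 was higher in shChi3l1 each time, by 0.46, 1.89 and 1.17 on the log2 scale. With the replicate block it was at 1.18 (SE 0.33, edgeR unadjusted p = 0.0116, adjusted p = 1.0000).

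Arginase and nitric oxide synthase draw on the same substrate, so the log2 ratio of Arg1 to Nos2 reads was taken in each library, with no test. It was 5.16, -2.51 and -0.53 in shChi3l1 1 to 3 and 7.16, 2.07, 1.77 and 3.54 in shSC 1 to 4. Nos2 reads outnumbered Arg1 reads in shChi3l1 2 and 3 and in no shSC library. The ratio takes no account of exonic length, which is 4439 bases for Nos2 and 2228 for Arg1. Per kilobase Nos2 exceeded Arg1 in shChi3l1 2 (23 against 8.04 RPKM), but not in shChi3l1 3 (5.91 against 8.12 RPKM). The means were 0.70 ± 3.98 (SD, n = 3) and 3.64 ± 2.47 (SD, n = 4), and shChi3l1 1 lay inside the shSC range. The difference in means was -2.93, and without shChi3l1 1 it was -5.16, without shChi3l1 2 it was -1.32 and without shSC 1 it was -1.76. The same-numbered differences were -2, -4.58 and -2.31.

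**Figure D4:**
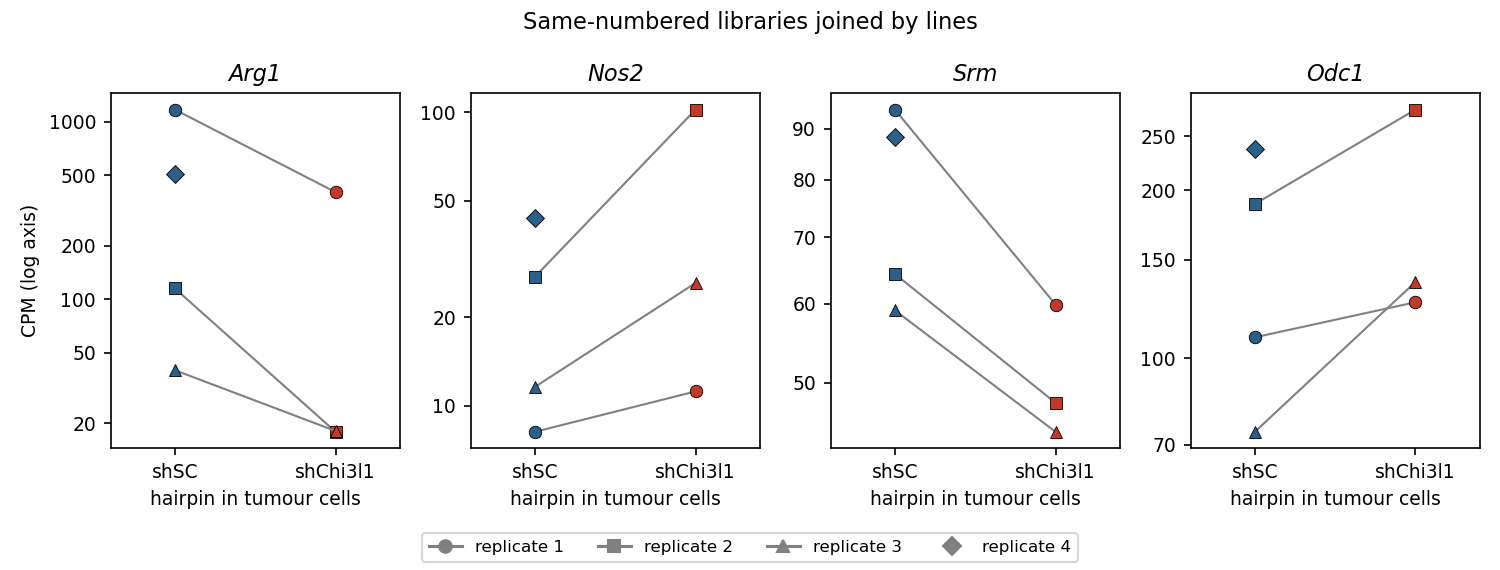
CPM of Arg1, Nos2, Srm and Odc1 on log axes, with same-numbered shSC and shChi3l1 libraries joined and shSC 4, which has no partner, unjoined. Arg1 and Srm were lower and Nos2 and Odc1 higher in shChi3l1 in each of the 3 pairs.

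The transporters differed little between hairpins. Slc7a1 encodes the constitutive cationic amino acid transporter CAT1 and had 13, 18.8 and 18.8 CPM in shChi3l1 1 to 3. In shSC 1 to 4 it had 10.4, 24.4, 19.1 and 18.9 CPM, and replicate 1 was the lowest of either group. Its log2 fold change was -0.11 (SE 0.37, edgeR adjusted p = 0.9998), 0.02 without shChi3l1 1 and 0.06 without shSC 2. Slc7a2 encodes CAT2, the transporter that inflammatory stimuli induce in macrophages, and had 51.9, 159 and 36.0 CPM in shChi3l1 1 to 3. In shSC 1 to 4 it had 44.8, 102, 35.9 and 82.1 CPM. Replicate 2 was the highest of each group for both transporters, in shChi3l1 level with replicate 3 for Slc7a1. The log2 fold change of Slc7a2 was 0.31 (SE 0.57), and it was -0.60 (SE 0.51) without shChi3l1 2.

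Ass1, which rebuilds arginine from citrulline, stood at 217, 257 and 110 CPM in shChi3l1 1 to 3. In shSC 1 to 4 it stood at 149, 169, 153 and 58.5 CPM. ShChi3l1 1 and 2 exceeded all shSC libraries, while shChi3l1 3 lay below shSC 1, 2 and 3. The log2 fold change was 0.56 (SE 0.45, edgeR adjusted p = 0.9998), and it was 0.31 (SE 0.40) without shSC 4. Its copy Gm5424, whose sequence is given above, had 0.61 (SE 0.38). Summed with that copy, Ass1 came to 272 ± 100 CPM (SD, n = 3) over the shChi3l1 group and 183 ± 65.2 CPM (SD, n = 4) over the shSC group, and the groups overlapped.

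Among the enzymes of polyamine synthesis, Srm came closest to separating the groups. Srm (ENSMUSG00000006442.10, chromosome 4, 148591503 to 148594993, plus strand), the spermidine synthase, stood at 59.9, 47.7 and 44.6 CPM in shChi3l1 1 to 3. In shSC 1 to 4 it stood at 94.1, 64.3, 59.1 and 88.3 CPM. Only shChi3l1 1 and shSC 3, which differ by less than 1 CPM, kept the groups from lying apart. The means were 50.8 ± 8.08 CPM (SD, n = 3) and 76.4 ± 17.3 CPM (SD, n = 4), and the log2 fold change was -0.59 (SE 0.32, edgeR unadjusted p = 0.0925, adjusted p = 0.9998). Its spread within groups, 0.29 on the log2 scale, was lower than that of most tested genes, of which 7.6% were steadier. Within same-numbered libraries Srm was lower in shChi3l1 by -0.65, -0.43 and -0.40 on the log2 scale. Its log2 fold change stayed between -0.77 and -0.43 under every alternative tried.

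Odc1, the ornithine decarboxylase (ENSMUSG00000011179.8, chromosome 12, 17544794 to 17551505, plus strand), stood at 126, 279 and 137 CPM in shChi3l1 1 to 3. In shSC 1 to 4 it stood at 109, 189, 73.8 and 237 CPM. The groups overlapped over most of their range, and the log2 fold change was 0.25 (SE 0.48, edgeR adjusted p = 0.9998). It was -0.22 without shChi3l1 2 and -0.05 without shSC 3. Within same-numbered libraries Odc1 was higher in shChi3l1 by 0.21, 0.56 and 0.89 on the log2 scale, and the replicate block gave 0.55 (SE 0.23, edgeR unadjusted p = 0.0496, adjusted p = 1.0000). Sms, the spermine synthase, was scarce, at 23.0, 8.47 and 10.5 CPM in shChi3l1 and 13.7, 9.23, 10.8 and 11.7 CPM in shSC libraries. Its log2 fold change was 0.30 (SE 0.42), and without shChi3l1 1, the highest library, it was -0.30 (SE 0.36). Sms-ps, its main copy, was also highest in shChi3l1 1, at 11.7 CPM.

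Sat1, the acetyltransferase that starts polyamine breakdown (ENSMUSG00000025283.15, chromosome X, 155213132 to 155216449, minus strand), was the most abundant member in every library. It stood at 2294, 1080 and 824 CPM in shChi3l1 1 to 3 and at 1979, 1032, 1295 and 1021 CPM in shSC 1 to 4. Replicate 1 was the highest of both groups. The log2 fold change was 0.07 (SE 0.46, edgeR adjusted p = 0.9998), and it changed sign under 8 of 17 alternatives, to -0.53 without shChi3l1 1 and -0.03 without each of shSC 2, 3 and 4. The log2 ratio of Odc1 to Sat1 reads was -4.19, -1.95 and -2.59 in shChi3l1 1 to 3 and -4.18, -2.45, -4.13 and -2.11 in shSC 1 to 4. In every library Sat1 reads outnumbered Odc1 reads, and the ratio was nearly the same in both libraries numbered 1. The means were -2.91 ± 1.15 (SD, n = 3) and -3.22 ± 1.09 (SD, n = 4), a difference smaller than either spread.

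Counted over the same-numbered libraries, 3 members were higher in shChi3l1 in all 3 pairs (Nos2, Odc1 and Slc7a2) and 2 were lower (Arg1 and Srm). Of all tested genes 12.5% were higher in all 3 pairs and 10.7% lower, 23.2% together. For Slc7a2 the difference in the third pair was 0.00 to 2 decimals.

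The rest of the pathway was read from a list of 54 further genes, of which 48 passed the filter on low counts. EdgeR's quasi-likelihood test called 0 of the 48 at an adjusted p of 0.05, as did DESeq2 and voom. It had 1 at an unadjusted p under 0.05, against 1.48% of all tested genes. DESeq2 also had 1, against 350 of all 15448 tested genes, and voom 0, against 4.62%. Their log2 fold changes were above 0 in 26 and below 0 in 22, with a median of 0.02, beside 0.07 over all tested genes. The 6 that did not pass the filter were Cps1, Nags, Slc25a2, Nos1, Oaz3 and Agmat, none with more than 8 reads in a library. Cps1, the first enzyme of the hepatic urea cycle, had 0 reads in each shChi3l1 library and at most 3 in a shSC library.

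Among genes around nitric oxide, 5 of 8 had log2 fold changes above 0, against 57.6% of all tested genes. Ddah1, which breaks down methylarginine inhibitors of nitric oxide synthases, was the 1 gene of the 48 at an unadjusted p under 0.05. It stood at 1.66, 2.14 and 1.75 CPM in shChi3l1 1 to 3 and at 1.74, 4.55, 3.79 and 16.1 CPM in shSC 1 to 4. The log2 fold change was -1.82 (SE 0.74, edgeR adjusted p = 0.9998), and shSC 4, the library highest in tumour and glial markers at a sum of 272 CPM, carried most of the shSC level. Without shSC 4 no gene of the list had an unadjusted p under 0.05, beside 143 of all 14950 tested genes. Without shChi3l1 3 no gene of the list had one either, beside 176 of 16202. Nos3, the endothelial synthase, had 5.81 CPM in shChi3l1 3 and 0.496 to 1.5 CPM in the other 6. Endothelial markers summed to 90 CPM in shChi3l1 3, the highest of all libraries. In shSC 2 they summed to 72.4 CPM, while Nos3 was at 1.04 CPM. The markers did not all move alike. Cldn5, which leads the list, was at 39 CPM in shChi3l1 3 and 9.23 CPM in shSC 2, while others of the list were higher in shSC 2. Of the exon bases of Nos3 32.28% are shared with Atg9b or Gm15587. The parts of these markers and of the shared bases were not tested. Gch1, the first enzyme of the tetrahydrobiopterin cofactor, had a log2 fold change of 0.21 (SE 0.32).

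Against 42.4% of all tested genes, 7 of 9 ornithine, proline and creatine enzymes had log2 fold changes below 0. Gatm, which transfers the amidino group of arginine in creatine synthesis, was the most abundant of them. It stood at 637, 642 and 433 CPM in shChi3l1 and at 1584, 553, 544 and 569 CPM in shSC libraries, so that shSC 1 stood alone. Its log2 fold change was -0.51 (SE 0.48). Pycr1, a proline synthesis enzyme, was at 1.04 (SE 0.65), with 6.22 CPM in shChi3l1 3 and 0.832 to 2.38 CPM in the other libraries. Transport and synthesis of arginine showed small values. Slc3a2, the heavy chain of several amino acid exchangers, was at 0.10 (SE 0.36), Slc7a6 at -0.37 (SE 0.35), Asl, which follows Ass1 in arginine synthesis, at 0.03 (SE 0.30), Slc25a15, the mitochondrial ornithine carrier, at -0.26 (SE 0.40) and Otc at -0.34 (SE 1.5).

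The 9 tested genes of polyamine synthesis and its control ran from -0.37 to 0.37, with a median of 0.00. Oaz1, the antizyme that targets ornithine decarboxylase for degradation, averaged 561 ± 315 CPM (SD, n = 3) over the shChi3l1 group and 560 ± 217 CPM (SD, n = 4) over the shSC group, and its log2 fold change was 0.00 (SE 0.47). Mtap, which salvages the by-product of spermidine and spermine synthesis, was at -0.37 (SE 0.33) and Mat2a, which makes S-adenosylmethionine, at 0.37 (SE 0.35). Atp13a2, a lysosomal polyamine exporter, had 49.5, 367 and 221 CPM in shChi3l1 and 86.0, 199, 89.5 and 187 CPM in shSC libraries, and its log2 fold change was 0.60 (SE 0.62). Slc18b1, a vesicular polyamine transporter, was at 1.22 (SE 0.85) and Sat2 at -0.77 (SE 0.65). Eif5a, the factor that carries the spermidine-derived hypusine, was at -0.30 (SE 0.47) and Eif5a2 at 0.26 (SE 0.41). Castor1, a cytosolic arginine sensor, was at 0.40 (SE 0.40) and Slc38a9, a lysosomal one, at 0.11 (SE 0.31).

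The pattern of Arg1 over the 7 libraries was compared with that of 9375 other tested genes of mean log2 CPM at least 2. Among the 5 most alike, by Pearson's r of log2 CPM over 7 libraries, were Ska1 (0.981), Spc25 (0.979), Morf4l2 (0.977) and Nup85 (0.975). Without the 2 libraries farthest from the median of Arg1 the r of these 4 was 0.974 to 0.985. Ska1 and Spc25 encode kinetochore proteins and Nup85 a nuclear pore protein. Like Arg1, each was highest in shSC 1, shChi3l1 1 and shSC 4, but over a much narrower range: Ska1 ran from 1.34 to 8.76 CPM, while Arg1 ran from 17.9 to 1170 CPM. For Odc1 the 5 most alike were Otud4 (0.988), Galc (0.987), Nrp2 (0.986), Gemin5 (0.979) and Ppm1b (0.960), and 0.959 to 0.977 without the 2 farthest libraries. These values describe the libraries, which also share their differences in composition, and the best of so many genes over 7 libraries is high by selection.

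**Figure D5:**
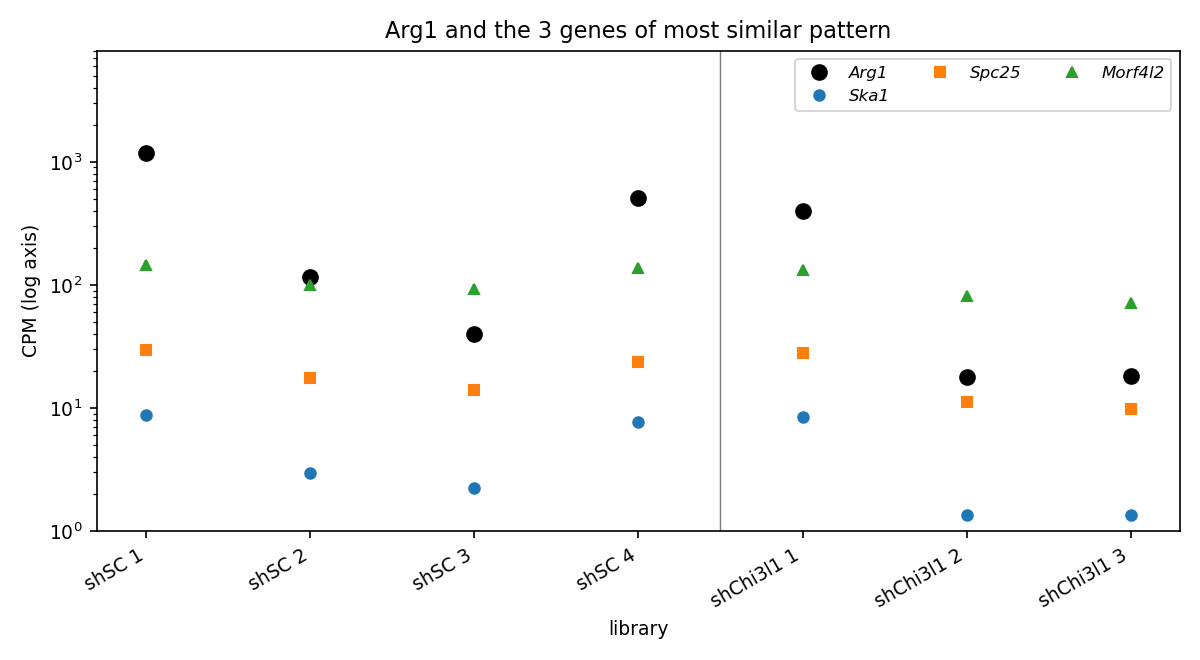
CPM of Arg1 (black) and of the 3 genes most like it on a log axis in each library, shSC left and shChi3l1 right of the line. All 4 genes stand highest in shSC 1, shSC 4 and shChi3l1 1, and Arg1 has the widest range, 17.9 to 1170 CPM.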

How the data were processed

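Macrophages sorted from shChi3l1 (3 libraries) and shSC (4 libraries) tumours were profiled by RNA sequencing. Per the labels' protocols, tumours were digested for 15 min at 37 °C, 10 ng of RNA entered a low-input SMART-Seq kit, and 1 ng of the cDNA a Nextera XT preparation, a method without strand marks. The submitters' processing notes list Trim Galore, HISAT2, featureCounts and mm10, with versions and settings not given in the sources used here. The authors deposited raw counts of reads for each gene. Amplified copies are not independent molecules, and reads from stretches that copies or overlapping genes share cannot be told apart. Of 55385 gene IDs, 55144 were named through GENCODE mouse release 21, and the unnamed took at most 0.00179% of reads.

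Groups and replicate numbers came from the titles. Genes were kept by filterByExpr at a minimum count of 10, given TMM factors and fitted in edgeR 4.0.16 (quasi-likelihood, robust, hairpin as the only term, all 7 libraries, R 4.3.3), with Benjamini-Hochberg adjustment over 15448 genes. CPM were taken on TMM-scaled library sizes, and counts had 0.5 added for log2 values. Standard errors derive from the F statistic. The fit was checked on simulated counts. Alternatives were other scalings and filters, leaving out each library, a replicate block, DESeq2 1.42.0, limma 3.58.1 voom with sample weights and length-trend offsets (loess span 0.5). Removing shChi3l1 3 and shSC 4 together was added after seeing the data.

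Besides the replicate number, each title gives its library a number of its own, lower in every shChi3l1 than in every shSC library. What that number marks is not given in the sources used here. The labels pair replicates 1 to 3 in a figure without naming a shared day or animal. Deviations from group means correlated at 0.306, 0.260 and 0.188 across genes in these pairs, all above the limit of 0.1, as did shChi3l1 3 with shSC 2 (0.322) and shChi3l1 2 with shSC 4 (0.200). The members and gene lists were chosen with earlier results of these data known. Named were all members, in each role of the wider list the 2 genes of smallest p and the most abundant, the most abundant marker of each cell type, and the 5 genes most like Arg1 and Odc1. A gene similar to Arg1 and a microglia marker are not reported here.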

Additional observations from a re-analysis of the deposited data

Results flagged for a closer look

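Gatm, the arginine:glycine amidinotransferase gene, reached 1584 CPM in shSC 1, far from the other shSC libraries at 544 to 569 CPM. The gap to the nearest of them was 0.977 of the range of the 4 libraries, above Dixon's 95% critical value for groups of that size. Of 30 genes examined this was the only one past that value, and chance passes it in about 1 of 20 groups. ShSC 1 was also the library highest in Arg1, at 1170 CPM. ShSC 4 and shChi3l1 1, next highest in Arg1 at 508 and 401 CPM, had 569 and 637 CPM of Gatm.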

How the results depend on the processing

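No member was called under any of the 17 alternatives, and the smallest adjusted p of a member was 0.7496 (Arg1, Nos2 and Srm without shChi3l1 1). Of 170 values of a member under an alternative, 154 kept the sign and 16 changed it, all of genes that were not called. Arg1, Arg2, Ass1 and Srm kept their sign throughout, though Arg1 ranged from -4.76 to -0.68 and Arg2 from 0.03 to 1.11 with 1 library left out. With 1 library left out, Nos2 ranged from -0.28 to 1.56, Odc1 from -0.22 to 0.54, Slc7a1 from -0.33 to 0.06, Slc7a2 from -0.60 to 0.67, Sms from -0.30 to 0.56 and Sat1 from -0.53 to 0.33. Sat1 also turned negative without the low-count filter (-0.04), with the replicate block (-0.12), with the block and length offsets (-0.11) and under voom (-0.24), as did Sms under voom (-0.05). Without shChi3l1 3 and shSC 4 together, a choice made after seeing the data, Arg2 was at 1.28 (edgeR unadjusted p = 0.0244, adjusted p = 1.0000), Nos2 at 1.85, Slc7a2 at 0.79 and Odc1 at 0.71. The cause was not tested. Over all genes DESeq2's Wald test called 1 gene and no other alternative called any, against 0 in edgeR's test, which had 229 at an unadjusted p under 0.05. The replicate block changed no call: 0 members and 0 genes passed with it. The ratio of Arg1 to Nos2 differed by between -5.16 and -1.32 with 1 library left out, and that of Odc1 to Sat1 by between -0.17 and 0.94. Neither moved by more than the spread within groups, and the replicate block gave -2.96 and 0.68. Sms had the fewest reads summed over the libraries (2384), and Nos2 the fewest in a single library (230, shSC 1).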
